A study of Mus musculus with 9 samples.

Results

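The 10 genes described here are Vegfa and 9 genes of the hypoxia response, found by gene symbol among the 19359 genes of the deposited expression table. They are Vegfa, Vegfb, Hif1a, Epas1, Arnt, Egln1, Egln2, Egln3, Vhl and Bnip3, and all 10 are in the table. Vegfa was chosen from its CPM (read counts divided by library size), which are far lower in later-transfer embryos than in sham embryos, and the other 9 were picked as its pathway with results of these libraries known. Their values are therefore given as a description. Calls for them in a fit across all genes are mentioned below, and nothing is read from those calls. All 10 passed the filter on low values, at least 1 CPM in at least 3 libraries, but Vegfb did so in exactly 3 libraries and Egln3 in 6.

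Poly(A) RNA was amplified and sequenced with a Smart-seq2 kit from whole mouse embryos at 34 h after fertilization, in 9 libraries of 3 pooled embryos each. LPN embryos had later pronuclear transfer, EPN embryos early pronuclear transfer and SPN embryos a sham transfer as control, with libraries A, B and C in each group. The eggs came from hormonally stimulated B6D2F1 females aged 8 to 12 weeks, for all 3 groups. The labels also describe cytoplasts made by selective enucleation of immature oocytes and do not say which libraries used them. Pools are the unit of replication, and whether they came from separate days or matings is not stated, so the spread between libraries may be partly technical. In such bulk RNA, fewer cells that express a gene and less RNA per cell cannot be told apart.

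Library totals ran from 7611781 reads (LPN B) to 15559218 reads (LPN A), and the upper limit for a gene without reads was set at 3 reads, which is 0.193 to 0.394 CPM. SPN A stood apart from its group: on the first principal component of all tested genes it lay at -1.97, among the EPN libraries (-29.4 to 7.26), while SPN B lay at -50.65 and SPN C at -84.6. Values without SPN A are given beside the results that rest on it. Most member differences from SPN were larger without SPN A. Leaving out SPN C or LPN B made several differences smaller, and such values are given for some members. Oocyte and 2-cell markers, 10 of 10 in the table, summed to 2884 to 3829 CPM in LPN, 2408 to 3158 CPM in EPN and 2023 to 2525 CPM in SPN, a sum whose members went opposite ways. Group means ran LPN below EPN below SPN for 5 of the 6 oocyte genes, all but Zp3, and LPN above EPN above SPN for all 4 genes of the 2-cell stage. Cumulus and granulosa cell markers, 10 of 14 in the table with Foxl2 at 0 in every library, summed to 31.9 to 46.0 CPM in LPN, 26.6 to 68.9 CPM in EPN and 41.2 to 61.2 CPM in SPN. Endothelial markers (4 of 6 in the table) summed to at most 19.9 CPM in any library and sperm markers (4 of 6) to at most 12.3 CPM.

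Cells sense oxygen through the stability of a transcription factor. HIF1α, encoded by Hif1a, and its relative HIF2α, encoded by Epas1, are made continuously; with oxygen present, prolyl hydroxylases encoded by Egln1, Egln2 and Egln3 mark them, and the VHL protein, the substrate receptor of a ubiquitin ligase, binds the mark and has them degraded. When oxygen is low they escape, pair with ARNT and switch on targets such as Vegfa, Egln3 and Bnip3. Much of this control acts on protein, which RNA abundance does not show.

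Promoter windows are shown for Vegfa, Egln3 and Bnip3, the 3 members with the largest LPN against SPN differences relative to their SE. Each holds the 250 bases upstream of the gene's outermost start in RefSeq (GRCm38.p6), written 5′ to 3′ on the gene's strand. Capitals mark the core of the hypoxia response element, searched as ACGTG and GCGTG on both strands; a palindromic E-box, CACGTG, holds ACGTG on both strands. The Vegfa window is chr17:46032378-46032627, the Egln3 window chr12:54203875-54204124 and the Bnip3 window chr7:138909507-138909756, all on the minus strand.
Vegfa: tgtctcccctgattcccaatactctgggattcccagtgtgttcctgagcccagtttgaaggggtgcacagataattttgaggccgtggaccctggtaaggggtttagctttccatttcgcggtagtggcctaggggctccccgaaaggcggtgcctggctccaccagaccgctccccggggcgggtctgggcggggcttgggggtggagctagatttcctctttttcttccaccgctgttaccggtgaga
Egln3: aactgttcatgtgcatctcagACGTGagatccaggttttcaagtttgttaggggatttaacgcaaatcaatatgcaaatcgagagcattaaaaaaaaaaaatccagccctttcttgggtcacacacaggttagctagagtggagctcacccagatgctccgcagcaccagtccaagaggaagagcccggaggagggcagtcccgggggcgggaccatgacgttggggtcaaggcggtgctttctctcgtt
Bnip3: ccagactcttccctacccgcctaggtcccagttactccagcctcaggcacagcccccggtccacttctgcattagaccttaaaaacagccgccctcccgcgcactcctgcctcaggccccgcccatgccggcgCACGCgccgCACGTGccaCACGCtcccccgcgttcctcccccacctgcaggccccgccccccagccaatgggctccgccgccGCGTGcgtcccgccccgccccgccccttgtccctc

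The Vegfa window shown held no match, the Egln3 window 1 match, 229 bases before the start, and the Bnip3 window 5 matches, from 117 to 35 bases before the start. A window at another annotated Vegfa start, chr17:46025164-46025413, held 1 ACGTG and 1 GCGTG match. That window lies inside the gene, downstream of the outermost start, and can hold exon sequence. Its matches are therefore not taken as promoter elements. The cluster in Bnip3 has an E-box, 108 bases before the start, with a GCGTG match on either side. Of 32851 promoter windows of the same length, 38.6% held at least 1 match to either core, 16.6% held ACGTG and 6.02% held the E-box. The match positions are letters in a window and not shown to be bound in these embryos. Sequence outside the windows was not searched, so a window without a match does not show that the gene lacks the element. RefSeq windows were matched for 9 of the 10 members, all but Epas1.

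Vegfa encodes VEGF-A, the secreted growth factor that drives blood vessel growth. It had 1.74, 0 and 0 CPM in LPN A, B and C, 7.30, 7.42 and 18.1 CPM in EPN A, B and C, and 11.9, 39.1 and 51.4 CPM in SPN A, B and C. The 1.74 CPM in LPN A came from 27 reads, against 438 reads in the EPN libraries together and 1195 in the SPN libraries together. Every LPN library lay below every EPN and SPN library, while EPN and SPN overlapped because SPN A lay below EPN C.

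Mean Vegfa was 0.578 ± 1.002 CPM in LPN, 10.95 ± 6.22 CPM in EPN and 34.1 ± 20.2 CPM in SPN (SD, n = 3), so that the LPN mean was 59.0-fold below the SPN mean and the EPN mean 3.12-fold below it. On the log2(CPM + 1) scale, the difference was -4.42 (SE 0.64) for LPN against SPN, -1.45 (SE 0.64) for EPN against SPN and -2.98 (SE 0.64) for LPN against EPN. Each pair of these comparisons shares a group, so they are not independent. As LPN B and LPN C had no read, the size of the fold rests on the pseudocount: with 0.1 CPM in its place the LPN against SPN difference was -6.78. Taken at the limit of 3 reads, LPN B lay at least 30.2-fold below the lowest SPN library and LPN C at least 47.3-fold below it. Without SPN A, the differences were -5.03 for LPN and -2.06 for EPN against SPN, and the EPN and SPN ranges no longer overlapped. Without SPN C the differences were smaller, -4.02 for LPN and -1.04 for EPN.

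Vegfb encodes a related ligand that binds VEGF receptor 1. It had 0.321, 0 and 1.09 CPM in LPN, 0.795, 0 and 0.1498 CPM in EPN, and 0.931, 1.15 and 1.57 CPM in SPN. These are 0 to 18 reads in a library, so only the order of the group means can be given, and its LPN and EPN levels are not distinguishable at this depth. EPN lay below SPN in every library, and LPN overlapped SPN.

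**Figure D1:**
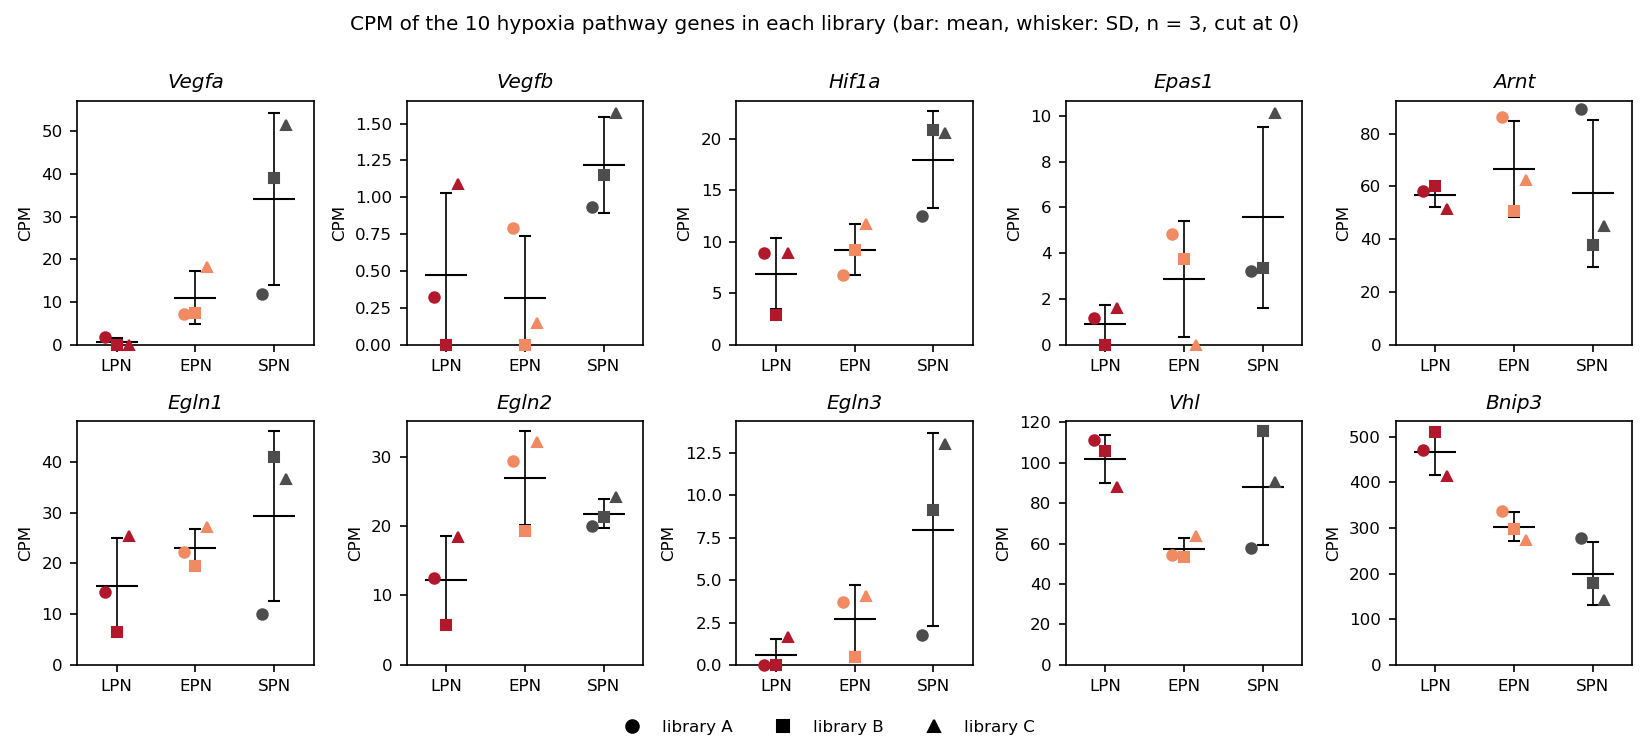
CPM of each of the 10 genes (vertical axes, linear and starting at 0, with a scale of their own) in LPN, EPN and SPN embryos; each point is 1 library, horizontal bars are means and whiskers SDs of 3 libraries. Vegfa lies at 0 to 1.74 CPM in LPN against 11.9 to 51.4 CPM in SPN, and Bnip3 at 414 to 511 CPM in LPN against 143 to 277 CPM in SPN.

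Among the HIF subunits, Hif1a had 8.87, 2.89 and 8.88 CPM in LPN, 6.72, 9.22 and 11.7 CPM in EPN, and 12.5, 20.8 and 20.6 CPM in SPN. Both transfer groups lay wholly below SPN and overlapped each other. The difference was -1.36 (SE 0.54) for LPN and -0.89 (SE 0.54) for EPN against SPN, and -0.47 (SE 0.54) for LPN against EPN. Without LPN B it was -0.91 for LPN against SPN and -0.02 for LPN against EPN. Exons of Hif1a overlap those of the antisense gene Gm15283 and of Gm49321 in the mouse annotation, and the Smart-seq2 libraries do not mark strand, so reads of a gene and its antisense partner cannot be told apart.

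Epas1 had 1.16, 0 and 1.59 CPM in LPN, 4.84, 3.75 and 0 CPM in EPN, and 3.22, 3.37 and 10.1 CPM in SPN. LPN lay below SPN, and EPN spanned the range of LPN and part of that of SPN because EPN C had no read. The difference for LPN against SPN was -1.73 (SE 0.70), from 37 reads in LPN and 199 in SPN. It was -0.96 for EPN against SPN and -0.77 for LPN against EPN (SE 0.70 each). Without SPN C the LPN against SPN difference was -1.27.

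Arnt, the shared partner of both, had 58.4, 60.3 and 51.6 CPM in LPN, 86.3, 50.8 and 62.6 CPM in EPN, and 89.4, 37.7 and 45.0 CPM in SPN. The spread within SPN, an SD of 28.0 CPM, exceeded every difference between group means, and the LPN against SPN difference was 0.08 (SE 0.36). Its sign changed in 2 of 16 alternatives. Without SPN A, which held the highest value, all LPN and EPN libraries lay above SPN B and SPN C, and the differences became 0.45 (SE 0.33) for LPN and 0.65 (SE 0.33) for EPN.

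Egln3 is a hydroxylase gene that hypoxia induces strongly in many cell types. It had 0, 0 and 1.68 CPM in LPN, 3.69, 0.469 and 4.05 CPM in EPN, and 1.79, 9.13 and 13.0 CPM in SPN. LPN lay below SPN, although LPN C and SPN A were close to each other, at 20 and 25 reads. The difference was -2.40 (SE 0.70) for LPN against SPN, -1.17 (SE 0.70) for EPN against SPN and -1.23 (SE 0.70) for LPN against EPN. Without SPN A the first of these was -3.10 (SE 0.73), and EPN then also lay wholly below SPN. Without SPN C the LPN against SPN difference was -1.94.

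Egln1 encodes the main oxygen sensor among these hydroxylases. It had 14.3, 6.57 and 25.5 CPM in LPN, 22.3, 19.5 and 27.1 CPM in EPN, and 10.1, 41.0 and 36.7 CPM in SPN. All groups overlapped, with SPN A at the low end, and the LPN against SPN difference was -0.84 (SE 0.51). Without SPN A it was -1.45 (SE 0.48), and both LPN and EPN lay below SPN. Without LPN B the LPN against SPN difference was -0.37. The EPN against SPN difference was -0.13 (SE 0.51), and its sign changed in 2 of 16 alternatives.

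Egln2, the gene of the hydroxylase PHD1, had 12.5, 5.78 and 18.4 CPM in LPN, 29.3, 19.2 and 32.1 CPM in EPN, and 19.98, 21.3 and 24.1 CPM in SPN. Here LPN lay below both other groups, and EPN overlapped SPN. The difference was -0.91 (SE 0.46) for LPN against SPN and -1.17 (SE 0.46) for LPN against EPN. Without LPN B these differences were -0.49 and -0.75. Its SPN libraries were the most alike of the 10 genes, with a coefficient of variation of 9.78%, and SPN A did not stand apart. Exons of Egln2 overlap those of Cyp2t4 on the opposite strand, which may share its reads.

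Vhl had 111, 106 and 88.1 CPM in LPN, 54.1, 53.4 and 63.6 CPM in EPN, and 57.9, 116 and 90.6 CPM in SPN. LPN lay above EPN in every library, with a difference of 0.82 (SE 0.32). LPN and SPN overlapped, with a difference of 0.25 (SE 0.32) whose sign changed in 1 of 16 alternatives. SPN A lay inside the EPN range, and without it EPN lay below SPN, with a difference of -0.84 (SE 0.29).

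Bnip3 encodes a BH3-only protein of the outer mitochondrial membrane that recruits the autophagy machinery to mitochondria. Unlike Vegfa and Egln3, which are also HIF targets, it was higher after transfer. It had 472, 511 and 414 CPM in LPN, 338, 297 and 274 CPM in EPN, and 277, 180 and 143 CPM in SPN. LPN lay above both other groups, while EPN C (274 CPM) and SPN A (277 CPM) made EPN and SPN overlap.

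Mean Bnip3 was 466 ± 49.0 CPM in LPN, 303 ± 32.4 CPM in EPN and 199.7 ± 69.5 CPM in SPN (SD, n = 3). The difference was 1.27 (SE 0.28) for LPN against SPN, 0.65 (SE 0.28) for EPN against SPN and 0.62 (SE 0.28) for LPN against EPN. With 1629 to 7341 reads in a library, counting error is small beside the spread between libraries. Without SPN A the differences from SPN were 1.53 (SE 0.24) for LPN and 0.91 (SE 0.24) for EPN. The EPN and SPN ranges then no longer overlapped. Without SPN C the differences from SPN were 1.05 for LPN and 0.44 for EPN. Exons of Bnip3 overlap those of the antisense gene Gm45507, whose reads may be included.

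**Figure D2:**
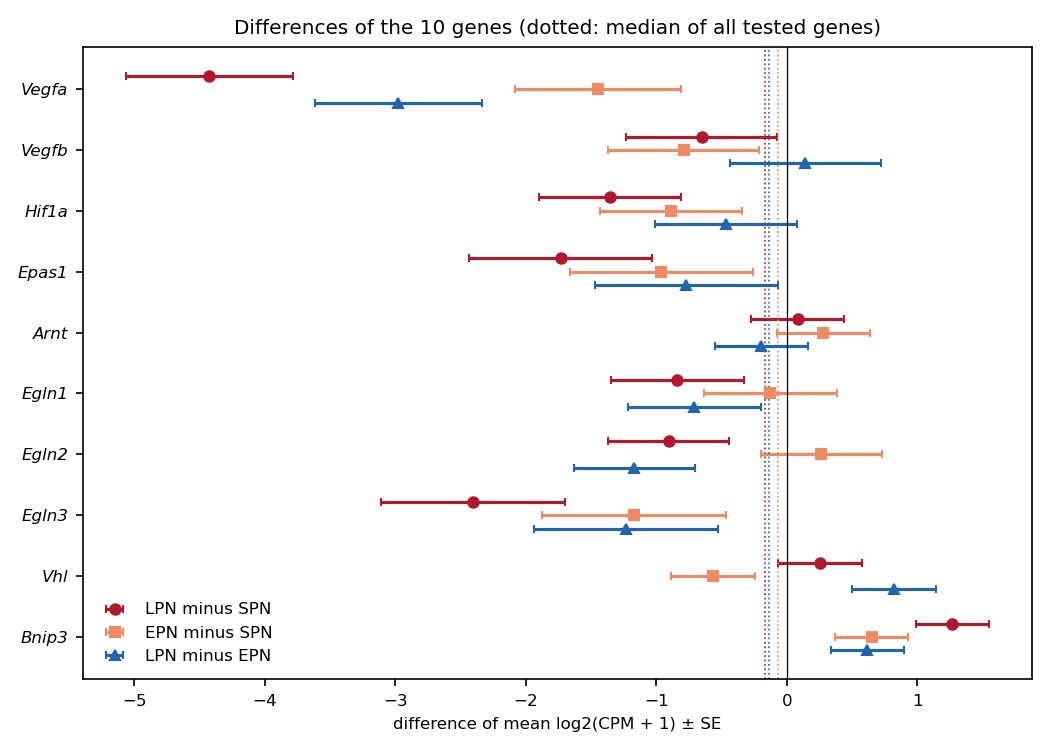
Differences between group means on the log2(CPM + 1) scale (horizontal axis) for the 10 genes, with whiskers of 1 SE; circles are LPN minus SPN, squares EPN minus SPN and triangles LPN minus EPN, and dotted lines mark the median of all tested genes. Vegfa has the most negative LPN minus SPN value, -4.42, and Bnip3 the most positive, 1.27.

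Set side by side, 7 of the 10 genes had a negative difference in each comparison, but not the same 7. Vegfa, Hif1a, Epas1, Egln1 and Egln3 were negative in all 3 comparisons, which share groups. Vegfb, Arnt, Egln2 and Vhl changed sign between comparisons. Medians of the 10 were -0.87 for LPN against SPN, -0.68 for EPN against SPN and -0.59 for LPN against EPN. The medians of all 14876 tested genes were -0.17, -0.07 and -0.14 on the same scale, shifts that median-of-ratios scaling brought to -0.02, -0.02 and -0.03. Relative to all genes, Vegfa stood at -4.26 and Bnip3 at 1.43 in LPN against SPN. In the limma fit across all genes, the adjusted p of 2 members lower in LPN than SPN (Vegfa and Egln3) and 1 higher (Bnip3) was under 0.05, as for 5.54% of all tested genes on the lower side and 3.26% on the higher. Since members were picked with these results known, nothing is read from these counts. Vegfa stays under 0.05 in 16 of 16 alternatives, but it was chosen for this difference, so this is no support for it. The other counts also rest on single libraries, and that of Egln3 on the method. Bnip3 drops out without LPN B or SPN C. Egln3 drops out without LPN A, LPN B, SPN B or SPN C, with no filter and with edgeR. Egln1 enters on the lower side without SPN A, when 11.8% of all tested genes are there. Groups did not overlap for 5 members that were lower in LPN than SPN (Vegfa, Hif1a, Epas1, Egln2 and Egln3; 16.2% of all tested genes) and for 1 that was higher (Bnip3; 11.3%). Without SPN A, 7 were lower and 2 higher without overlap, against 30.0% and 17.0% of all tested genes.

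For EPN against SPN no member had an adjusted p under 0.05, against 0.108% of all tested genes, and 2 members (Vegfb and Hif1a) were lower without overlap, against 7.56% of all tested genes. None was higher without overlap, against 7.07%. Without SPN A, 6 members were lower in EPN without overlap and 2 were higher, against 23.8% and 14.2% of all tested genes. Then 1 member (Bnip3) came under 0.05, against 3.03%, and nothing is read from this. For LPN against EPN 1 member, Vegfa, was under 0.05, against 1.53% of all tested genes, and nothing is read from this either. It drops out without LPN B, EPN A or EPN C, with no filter, with edgeR and with DESeq2, where Vhl enters instead. Vegfa and Egln2 were lower in LPN than EPN without overlap, against 15.3% of all tested genes, and Vhl and Bnip3 were higher, against 11.3%.

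Blood markers and 5 of the 6 oocyte genes also had their lowest group mean in LPN, where Vegfa was low. Of the 6 genes of the blood list, 2 were in the table, Hba-a1 and Hba-a2, and they summed to 9.32 to 26.1 CPM in LPN, 33.9 to 79.8 CPM in EPN and 36.0 to 100.4 CPM in SPN. Hba-a1, an alpha-globin gene, gave 9.13, 22.7 and 26.1 CPM of this in LPN, 66.5, 77.1 and 32.9 CPM in EPN, and 35.1, 47.05 and 100.3 CPM in SPN. LPN lay below both other groups, while EPN and SPN had means of 58.8 and 60.8 CPM, and EPN C, which had the most Vegfa of the EPN libraries, had the least Hba-a1. Bmp15, an oocyte growth factor gene, had 289, 172 and 170.2 CPM in LPN, 609.8, 296 and 351 CPM in EPN, and 474, 478 and 699 CPM in SPN. Gdf9, its partner in the oocyte, averaged 61.9 ± 9.62 CPM in LPN, 107 ± 26.9 CPM in EPN and 159.9 ± 39.4 CPM in SPN (SD, n = 3), and for both genes every LPN library lay below every EPN and SPN library. Of the other oocyte genes, Zp1, Zp2 and Nlrp5 overlapped between LPN and SPN. Zp3 went the other way, with means of 196 CPM in LPN, 107 CPM in EPN and 86.6 CPM in SPN. The part of blood and oocyte markers in the Vegfa difference was not tested. The summed cumulus and granulosa cell markers overlapped between all groups, although single genes did not: Kitl was at 4.37 to 6.45 CPM in LPN and 6.73 to 18.7 CPM in SPN, and Tnfaip6 at 11.5 to 23.7 CPM in EPN and 2.13 to 10.8 CPM in SPN.

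To set the members beside the rest of their pathway, 6 further lists were examined, with 92 of 99 genes in the table and 82 tested. These lists were also chosen with earlier results of these data known, which the adjusted p-values of their genes do not take into account. In LPN against SPN, 5 of 82 fell and none rose, with 22 at an unadjusted p under 0.05 by limma, a level that 26.9% of all tested genes reached. The share that fell, 5 of 82, is near the 5.54% of all tested genes that fell, and the list median of -0.41 compares with -0.17 over all genes. With edgeR 4 fell and with DESeq2 6 fell and 2 rose. Median-of-ratios scaling turned the split of all called genes, 485 higher and 824 lower as deposited, to 679 higher and 541 lower, while in the lists 4 genes still fell and none rose. Without SPN A, 10 fell and 2 rose, against 11.8% and 6.59% of all tested genes, and without LPN A or without SPN C 2 fell, and without LPN B 3 fell.

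Of 13 tested genes of the HIF and VHL machinery, 2 fell in LPN against SPN and 11 did not pass. Siah2, a ubiquitin ligase that targets EGLN proteins for degradation, had 690, 553 and 746 CPM in LPN, 1538, 1121 and 1333 CPM in EPN, and 1215, 1993 and 2269 CPM in SPN. All LPN libraries lay below all others, and it fell 2.68-fold in LPN against SPN (log2 difference -1.42, SE 0.28, limma adjusted p = 0.00333), a call held in 16 of 16 alternatives. Against EPN its difference was -1.003 (limma adjusted p = 0.0529). Crebbp, which encodes the coactivator CBP, averaged 129 ± 31.8 CPM in LPN, 219 ± 28.7 CPM in EPN and 256 ± 80.3 CPM in SPN (SD, n = 3). Its fall in LPN against SPN was 1.94-fold (limma adjusted p = 0.0399), a call held in 5 of 16 alternatives and lost without LPN A, LPN B, SPN B or SPN C, among others. No gene of this list passed in EPN against SPN; Hsp90ab1, an HSP90 chaperone gene, came closest, at 1191 ± 207 CPM in EPN and 523 ± 54.6 CPM in SPN (limma adjusted p = 0.109).

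The list of VEGF ligands and receptors had 3 tested genes of 8, and none passed. Kdr, the main signalling receptor for VEGF-A, had 0, 0.131 and 0 CPM in LPN, 1.66, 0 and 0.0749 CPM in EPN, and 3.15, 1.77 and 1.31 CPM in SPN (limma adjusted p = 0.0954 for LPN against SPN). Its LPN libraries thus held a single read in all and lay below every SPN library. Nrp1, a co-receptor, averaged 22.8 ± 11.5 CPM in LPN, 40.2 ± 12.2 CPM in EPN and 41.7 ± 12.8 CPM in SPN (limma adjusted p = 0.242 for LPN against EPN).

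Of 21 tested HIF targets of glucose uptake and glycolysis, 1 fell in LPN against SPN, none rose and 20 did not pass. Ldha, which encodes the lactate dehydrogenase subunit that reduces pyruvate, had 13.6, 14.85 and 17.4 CPM in LPN, 35.5, 29.9 and 52.1 CPM in EPN, and 69.9, 34.6 and 42.5 CPM in SPN. LPN was below both other groups, and it fell 2.96-fold in LPN against SPN (limma adjusted p = 0.0152), a call lost without LPN A, LPN B or SPN C. This list had a median of -0.48 in LPN against SPN, 0.22 for EPN against SPN and -0.96 for LPN against EPN, where all genes had -0.17, -0.07 and -0.14. In LPN against EPN, 18 of its 21 genes had a negative difference, and none passed. Gpi1, glucose-6-phosphate isomerase, came closest, with 22.6, 10.5 and 25.9 CPM in LPN, 61.65, 49.45 and 47.3 CPM in EPN, and 23.4, 22.4 and 23.5 CPM in SPN. It was lower in LPN than EPN (limma adjusted p = 0.0532) and higher in EPN than SPN (limma adjusted p = 0.274), with no overlap in either comparison.

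Of 30 tested other HIF targets, 2 fell in LPN against SPN, none rose and 28 did not pass. Ccng2, an unconventional cyclin gene linked to cell cycle arrest, had 14.9, 14.7 and 5.95 CPM in LPN, 30.4, 18.7 and 27.8 CPM in EPN, and 48.1, 57.5 and 51.5 CPM in SPN. The 3 groups did not overlap, and it fell 4.43-fold in LPN against SPN (log2 difference -2.15, SE 0.43, limma adjusted p = 0.00364), a call held in 16 of 16 alternatives. For EPN against SPN its difference was -1.03 (limma adjusted p = 0.359) and for LPN against EPN -1.12 (limma adjusted p = 0.144). Ak4, a mitochondrial adenylate kinase gene, fell 3.65-fold, with 14.95 ± 7.43 CPM in LPN and 55.75 ± 24.8 CPM in SPN (SD, n = 3; limma adjusted p = 0.0118), a call lost without LPN A, without SPN C and with no filter. P4ha2, a collagen prolyl hydroxylase subunit gene, had 36.1, 40.3 and 82.1 CPM in LPN, 80.95, 52.4 and 69.8 CPM in EPN, and 29.9, 26.9 and 28.3 CPM in SPN. Both transfer groups lay above SPN, without passing (limma adjusted p = 0.169 for LPN and 0.204 for EPN).

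None of 8 tested relatives of Bnip3 and other mitophagy receptors passed in any comparison. Bnip3l, its closest relative, had 331, 268 and 275 CPM in LPN, 232, 260 and 197 CPM in EPN, and 303, 271 and 304 CPM in SPN. LPN and SPN overlapped, and the LPN against SPN difference was -0.01 (SE 0.27), where that of Bnip3 was 1.27. A test of the difference between these genes was not made. A pseudogene of Bnip3l is also in the table, and its reads may be split with the gene. Fkbp8, a mitophagy receptor, averaged 4.26 ± 3.70 CPM in LPN, 10.3 ± 4.20 CPM in EPN and 10.3 ± 2.88 CPM in SPN (limma adjusted p = 0.128 for LPN against SPN and 0.204 for LPN against EPN).

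Factors known to act on the Vegfa promoter or mRNA did not pass either, in any of 7 tested genes and 3 comparisons. Zfp36l2, which promotes decay of mRNAs with AU-rich elements, had 2.96, 5.78 and 1.84 CPM in LPN, 14.5, 6.87 and 5.47 CPM in EPN, and 4.01, 21.0 and 30.6 CPM in SPN (limma adjusted p = 0.0656 for LPN against SPN). SPN A again lay low and made SPN overlap both other groups; without it Zfp36l2 passed, as it did with the 5 CPM filter and with DESeq2. Over all 6 lists no gene passed in EPN against SPN, with 9 of 82 at an unadjusted p under 0.05 by limma, as for 11.05% of all tested genes; 0 passed with edgeR and 2 with DESeq2. The comparison of LPN with EPN gave none either, with 21 at an unadjusted p under 0.05 by limma, as for 19.3% of all tested genes; 0 passed with edgeR and 4 with DESeq2. Without SPN A, 4 of 82 genes passed in each of these comparisons, against 3.03% and 5.12% of all tested genes. They were Adm, Elob, Eno1 and Hsp90ab1 in the first and Eno1, Gpi1, Ldha and Siah2 in the second.

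**Figure D3:**
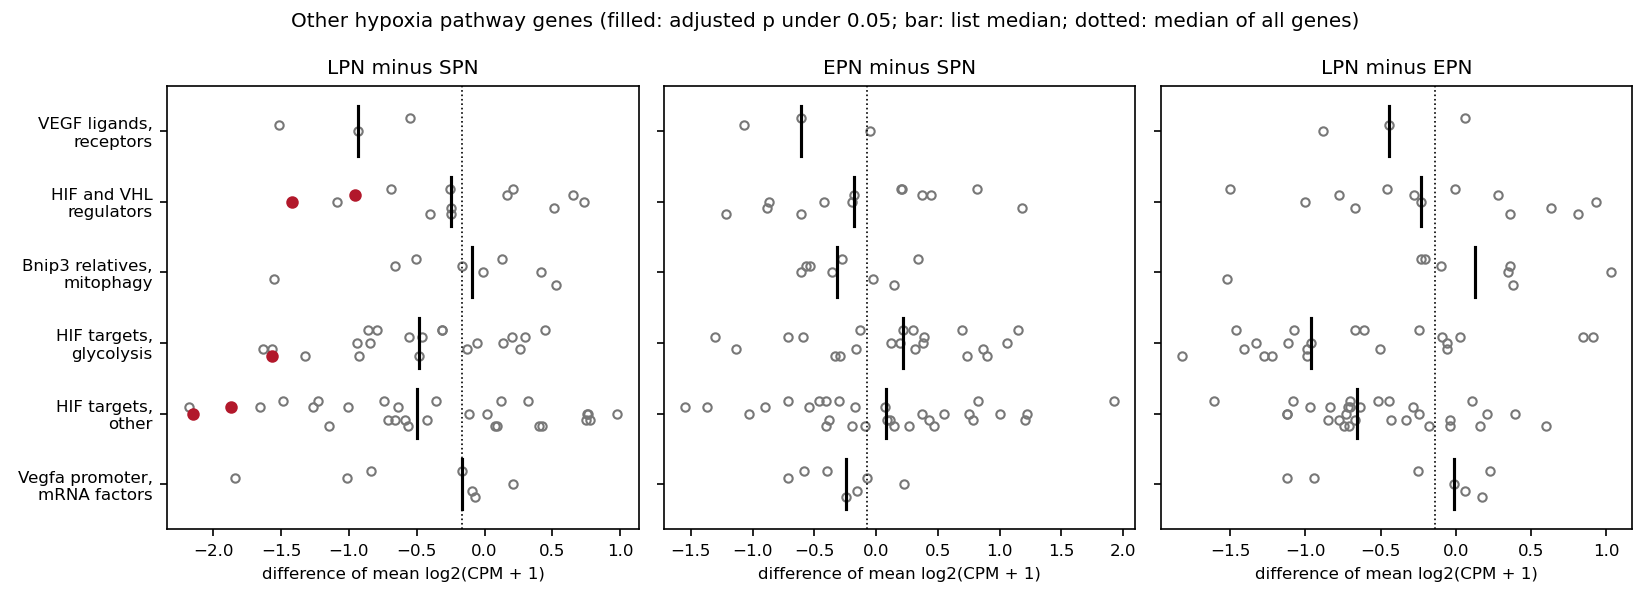
Differences between group means on the log2(CPM + 1) scale (horizontal axes) for the 82 tested genes of 6 further hypoxia lists (rows), in the 3 comparisons; filled points have a limma adjusted p under 0.05, vertical bars are list medians and dotted lines the median of all genes. Filled points appear in LPN minus SPN, 5 of 82, all at negative values, and the glycolysis median lies at -0.96 in LPN minus EPN.

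The 5 genes whose pattern was most like that of Vegfa were sought among 9159 named genes averaging 5 CPM or more, by Pearson's r over the 9 libraries on the log2(CPM + 1) scale. They were Lrrc4 (r = 0.98), Tpt1 (r = 0.98), Fgf8 (r = 0.98), Plxna4 (r = 0.97) and Fbxl6 (r = 0.97). With 3 groups in 9 libraries, any gene that was low in LPN and high in SPN scores well, so r is a measure of likeness and no test. Fgf8, a fibroblast growth factor gene, had 2.44, 1.58 and 0.419 CPM in LPN, 4.55, 4.30 and 7.42 CPM in EPN, and 5.01, 11.1 and 11.8 CPM in SPN. Its SPN A value fell within the EPN range, as it did for Vegfa. Plxna4, a semaphorin receptor gene, averaged 7.40 ± 0.321 CPM in LPN, 22.6 ± 4.92 CPM in EPN and 39.0 ± 14.3 CPM in SPN, and Lrrc4, a synaptic adhesion gene, 1.78 ± 0.908, 4.74 ± 1.23 and 10.2 ± 2.74 CPM in the same order. Tpt1, which encodes the translationally controlled tumour protein, averaged 626 ± 68.6 CPM in LPN, 913.5 ± 10.1 CPM in EPN and 1043 ± 75.8 CPM in SPN, and Fbxl6, an F-box gene, 57.3 ± 8.79, 97.2 ± 2.39 and 124 ± 8.81 CPM (SD, n = 3 throughout). For Tpt1, Lrrc4 and Fbxl6 the 3 groups did not overlap.

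**Figure D4:**
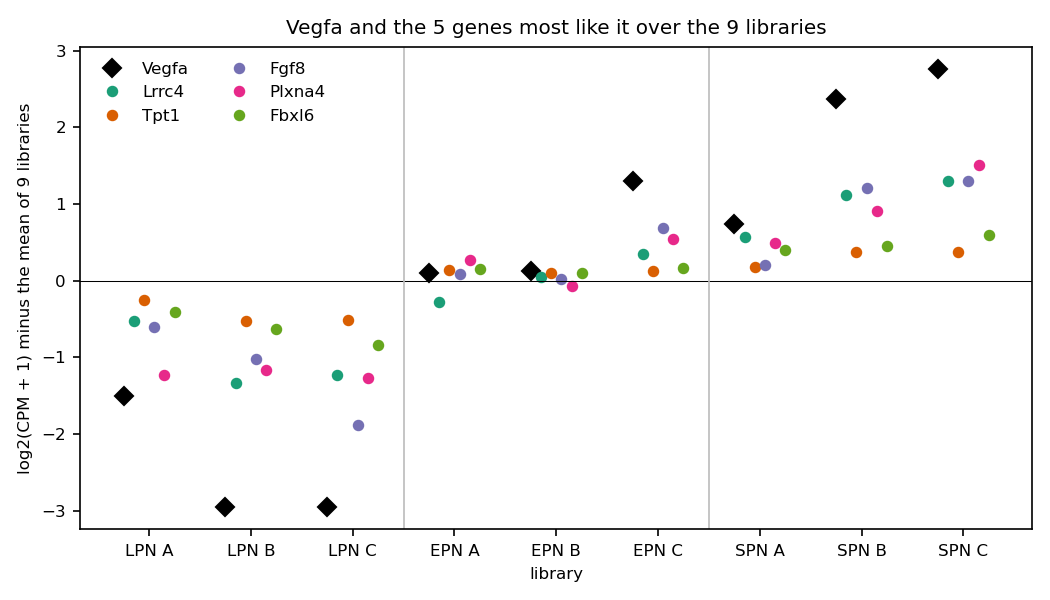
Vegfa (diamonds) and the 5 genes most like it (circles) in each of the 9 libraries (horizontal axis), as log2(CPM + 1) minus the mean of the 9 libraries (vertical axis). All 6 genes lie below their mean in the 3 LPN libraries and above it in the 3 SPN libraries, and Vegfa has the widest range.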

How the data were processed

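The authors deposited CPM for 19359 genes in 9 libraries made, per the submitters' processing notes, with edgeR (R 3.3.3), HISAT2 2.2.1 and Trim Galore 0.6.7 on GRCm39. The counter and annotation are not given in the sources used here. All CPM values (100%) were whole multiples of 1 step per library (tolerance 0.01 reads), which gave back reads and library totals. Between 3.66% and 5.68% of each total lay outside the table. No pair of libraries held identical values. Limits from counts cover counting error only, since the labels describe amplified libraries and no molecular identifiers.

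The 14876 genes that reached 1 CPM in 3 or more libraries entered 1 limma 3.58.1 model (R 4.3.3) on log2(CPM + 1) over the 3 groups, with trended empirical Bayes and Benjamini-Hochberg adjustment over all tested genes per comparison; a call is an adjusted p under 0.05. Each SE is that of the limma contrast. The members and lists were chosen with earlier results of these data known. Named list genes are up to 4 called per list and comparison, or the 1 with the smallest p; likeness to Vegfa was ranked among genes without predicted or clone names. Elob, Adm, Eno1 and single marker genes, outside this rule, were named after their values were seen. Alternatives were median-of-ratios scaling, a pseudocount of 0.1 CPM, no filter, a mean of at least 5 CPM, edgeR 4.0.16 and DESeq2 1.42.0 on recovered reads, the replicate letter as a block, and each library left out. The pipeline was tested on simulated data. Overlapping exons were looked up by gene name in a GRCm38 annotation. Promoters are RefSeq's (GRCm38.p6), not the authors' build.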

Additional observations from a re-analysis of the deposited data

How the results depend on the processing

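The LPN against SPN difference of Vegfa was -6.78 with a pseudocount of 0.1 CPM, -5.44 with edgeR and -5.55 with DESeq2, and ran from -5.03 to -4.02 with 1 library left out. For LPN against EPN the values were -5.25, -3.94 and -4.05, and -3.46 to -2.58; for EPN against SPN, -2.06 to -1.04. These scales treat counts of 0 differently. Of 423 alternative values of the other 9 members, 409 moved by less than the replicate SD. The 14 that moved by more were all of Vegfb, Epas1 or Egln3. Of the 423, 8 had the opposite sign, each within the replicate SD of the reported value. Many of the 423 values could not move, so these counts overstate stability. No filter, the 5 CPM filter and the replicate block leave a difference unchanged, as does leaving out a library of the group not compared. The counts of alternatives with a changed sign include such values. Vegfb, Epas1 and Egln3 have means under 5 CPM and gave no value under that filter. Genes called numbered 494 with no filter and 477 with edgeR in LPN against SPN (1309 as reported). In EPN against SPN (16) they were 3 with median-of-ratios scaling, 4 with the pseudocount, 0 by limma with no filter (1859 at an unadjusted p under 0.05), 0 with edgeR (1304) and 117 with DESeq2. In LPN against EPN (228) they were 62 with the pseudocount, 0 by limma with no filter (3015), 395 with a mean of at least 5 CPM, 17 with edgeR and 925 with DESeq2. Among the 82 list genes, LPN against SPN gave 3 with no filter, 8 with the 5 CPM filter and 8 with DESeq2, EPN against SPN 2 with DESeq2, and LPN against EPN 2 with the 5 CPM filter and 4 with DESeq2. With 1 library left out, genes called ran from 96 (without SPN C) to 2733 (without SPN A) in LPN against SPN, from 0 (limma; 1170 at an unadjusted p under 0.05 without EPN C and 1056 without SPN C) to 451 (without SPN A) in EPN against SPN and from 4 (without LPN B) to 762 (without SPN A) in LPN against EPN. List genes ran from 2 to 12, 0 to 4 and 0 to 4. The cause of these changes was not tested.

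Deviations from the group mean correlated at -0.0239 to 0.0920 between same-lettered libraries and at -0.0996 to 0.0960 between libraries of different letters. These ranges overlap and the values are small, so the letters are not taken as pairs. A weak shared deviation by letter is not excluded. With the letter as a replicate block, genes called rose to 1644 for LPN against SPN, 25 for EPN against SPN and 480 for LPN against EPN. In the last of these, 2 list genes passed (Gpi1 and Siah2).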
